A study of Bos taurus with 12 samples.

Results

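FGF2, its carrier FGFBP1, the receptors FGFR1, FGFR2 and FGFR3, the ligand FGF7, and the pair HGF and MET form a small set of growth factor genes, described here in the endometrium of heifers before embryo transfer. The set was chosen by gene name, with earlier results of these arrays known, and it took every probe set that the array's annotation gives to 1 of the 8 gene symbols alone. This found 17 probe sets for 7 of the 8 genes, out of 24128 probe sets in the table. FGF7 had no such probe set and is not analysed here. A gene counted as measured where 3 or more of the 12 arrays read above 4 on the log2 scale, a rule that used the level and not a difference between groups. By this rule 4 of the 8 genes were measured, FGF2, FGFBP1, FGFR2 and MET, each by 1 probe set that was above 4 on all 12 arrays.

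The biopsies came from Simmental heifers, a cattle breed, and were taken in the oestrous cycle that preceded the transfer of an embryo. Affymetrix bovine 3' expression arrays were hybridised with RNA from pooled biopsies. CDd14 and CDd7 are biopsies of day 14 and day 7 from heifers that went on to deliver a calf (CD). NPd14 and NPd7 are biopsies of the same days from heifers that did not become pregnant (NP) and returned to heat. Each group has 3 pools on 1 array each, no group received a treatment, and outcome is the only difference the labels give between CD and NP. The sources used here do not say how many heifers a pool holds, or whether pools of day 14 and day 7 share heifers. Each p-value thus measures the spread between pools.

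Fibroblast growth factors are secreted proteins that bind tyrosine kinase receptors on the cell surface, with heparan sulfate chains as co-receptor. FGF2 is held in the extracellular matrix by these chains, and FGFBP1 is a secreted carrier that releases it. FGFR1, FGFR2 and FGFR3 are receptors, and the IIIb splice form of FGFR2, typical of epithelium, binds FGF7, a factor made by stromal cells. HGF is likewise a stromal factor, and its receptor MET sits on epithelial cells. Both kinds of receptor signal through the RAS and MAP kinase cascade. In the ruminant uterus these factors are known as signals between stroma, glands and luminal epithelium in the luteal phase, the days of high progesterone that include day 7 and day 14.

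On arrays of the whole series, medians were 4.89 to 5.06 (log2), and correlations between arrays were 0.921 to 0.988 within groups. Of 7 uterine genes taken to check the tissue, the oxytocin receptor OXTR, the uterine serpin SERPINA14 and MSX1 were measured, while PGR, ESR1 and HOXA10 had probe sets at or under the filter and HOXA11 had no single-symbol probe set. SERPINA14, a secreted protein of the luteal phase uterus, was at 3.48 in NPd14 pool 3, against 8.25 and 9.05 in the other NPd14 pools. Between days in CD, limma called 9.87% of the 6781 measured genes as higher and 14.2% as lower at an adjusted p under 0.05. Between days in NP these shares were 0.059% and 0.0737%, and between outcomes they were 1.46% higher and 2.02% lower in CD at day 7 and 0% and 0.0147% at day 14. The shares of genes at an unadjusted p under 0.05 were 39.3% between days in CD, 16.5% between days in NP, 30.4% between outcomes at day 7 and 6.34% at day 14. Setting the CD day effect against that of NP, the share called was 0% in either direction, with a smallest adjusted p of 0.192 over all probe sets and 1900 of 13449 probe sets at an unadjusted p under 0.05.

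All 4 measured genes were higher at day 14 than at day 7 in CD, with 3-fold for FGF2, 12-fold for FGFBP1, 1.88-fold for FGFR2 and 5.01-fold for MET. In NP, MET, FGFBP1 and FGFR2 were on the same side, by 3.83-fold, 2.18-fold and 1.32-fold, and FGF2 was on the opposite side, 2.32-fold lower at day 14, with none of these 4 differences past the threshold. FGF2 and FGFBP1 were lower in CD than in NP at day 7, by 2.86-fold and 4.47-fold. At day 14 no gene of the set differed between the outcomes past the threshold. The CD day course and the day 7 comparison share the CDd7 arrays, so they are not independent of each other. Since the genes were taken up with such results in view, their adjusted p-values describe these arrays and give no independent support.

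**Figure D1:**
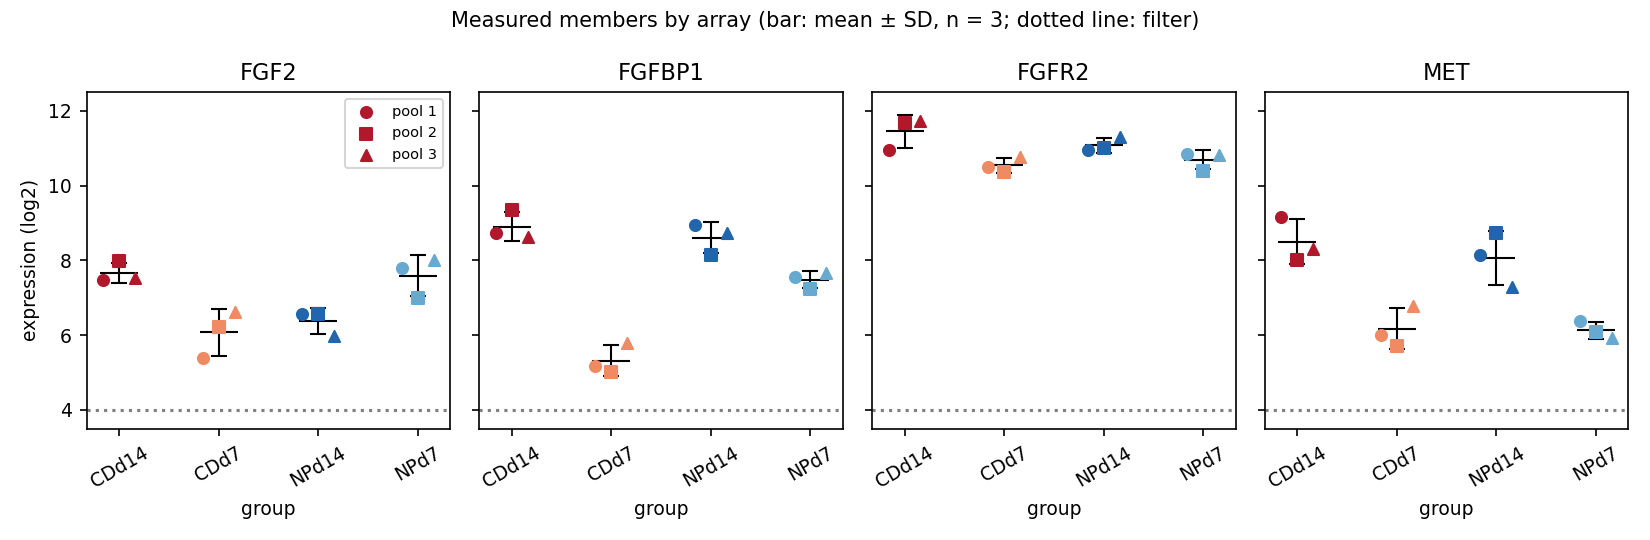
Log2 level (GCRMA) of the 4 measured genes on each of the 12 arrays, 1 panel per gene, with groups in the order CDd14, CDd7, NPd14, NPd7. Points are pools with a marker shape per pool number, and bars are the group mean with SD (n = 3). FGF2 is high in CDd14 and NPd7 and low in CDd7 and NPd14, FGFBP1 is lowest in CDd7 and MET is higher at day 14 in both outcomes.

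FGF2, a ligand of several FGF receptors, was read by a probe set that the annotation lists by an expressed sequence tag. It had log2 levels of 7.47, 7.98 and 7.53 in CDd14 pools 1 to 3, against 5.40, 6.22 and 6.61 in CDd7. In NPd14 it had 6.58, 6.57 and 5.98, against 7.80, 6.98 and 8.0 in NPd7. Every CDd14 pool lay above every CDd7 pool, and every NPd14 pool lay below every NPd7 pool. The group means were 7.66 ± 0.28 in CDd14, 6.08 ± 0.62 in CDd7, 6.38 ± 0.34 in NPd14 and 7.59 ± 0.54 in NPd7 (SD, n = 3 each), so that CDd14 was highest, followed by NPd7, NPd14 and CDd7. CDd14 and NPd7 overlapped, as did NPd14 and CDd7, while no pool of the upper pair of groups overlapped a pool of the lower pair.

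Between days in CD, FGF2 rose by 1.58 on the log2 scale (SE 0.35, 95% interval 0.81 to 2.36, limma adjusted p = 0.0119). In NP the difference was -1.21 (95% interval -1.99 to -0.44), with an unadjusted p of 0.00576 and an adjusted p of 0.163. The difference between these day effects was 2.80 (SE 0.49, 95% interval 1.70 to 3.89), with an unadjusted p of 0.000195 and an adjusted p of 0.192, so it did not pass the threshold. FGF2 was 1 of 31 genes (0.457% of 6781) with non-overlapping days in both outcomes, higher at day 14 in CD and lower at day 14 in NP. Between outcomes, FGF2 fell by 1.52 in CD at day 7 (95% interval -2.29 to -0.74, adjusted p = 0.0453). At day 14 it was 1.28 higher in CD (95% interval 0.51 to 2.06, adjusted p = 0.422), with no overlap between the pools.

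The day 7 call of FGF2 lay close to the threshold and was lost when any 1 of 8 arrays was left out. Its adjusted p was 0.0609, 0.06 and 0.0694 without CDd14 pool 1, 2 or 3, and 0.0793 and 0.158 without CDd7 pool 1 or 2. It was 0.0669 without NPd14 pool 1, and 0.162 and 0.188 without NPd7 pool 1 or 3. The call was also lost with no filter (0.0806) and when only the 6 day 7 arrays were fitted (0.102). The FGF2 call between days in CD held without any single array, with an adjusted p of at most 0.0405.

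The FGF2 pattern rests on 1 of the gene's 2 probe sets. The other read 1.68 to 1.72 on all 12 arrays, which is nearly flat and under the filter. It therefore neither repeats nor contradicts the pattern between groups, and it does not repeat the level of the measured probe set (5.40 to 8.0). In the annotation the probe set with the signal is listed by an expressed sequence tag and the dim one by the RefSeq transcript of FGF2. That the tag belongs to FGF2 rests on the annotation alone and was not checked, and every FGF2 value here carries this limit.

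In pooled tissue, fewer cells of a type and less RNA per cell cannot be told apart. Of 16 stromal fibroblast markers, 12 were measured, and their mean log2 level was 6.36 to 7.13 in CDd14, 5.60 to 6.91 in CDd7, 6.87 to 8.33 in NPd14 and 8.35 to 9.57 in NPd7. COL6A1, included in these means, passed the filter only through the NPd7 pools, where it is high. It is left out of the counts that follow. At day 7 all 11 others were lower in CD, with a median difference of -2.95 against -0.01 over all genes. Of these, 7 fell, against 2.02% of all genes. PDGFRA fell by 1.75 and SPARC by 3.96 in CD at this day. COL1A1, PDGFRB and POSTN had probe sets at or under the filter, and COL6A3 had no single-symbol probe set. Between days in NP the 11 markers had a median difference of -1.85 (FGF2 -1.21), with 7 below 0 and 4 above. Between days in CD the median was 0.33 (FGF2 1.58), with 8 above 0 and 3 below. Their median for the CD day effect minus the NP day effect was 2.26, with 10 of 11 above 0 (FGF2 2.80). FGF2 thus lay on the same side as these medians in the day 7 comparison, in both day courses and in the difference between them. At day 14 it was 1.28 higher in CD, and all 11 markers were lower in CD with a median of -0.69. Except for the day 7 comparison and 2 markers that rose in CD (9.87% of all genes did), no stromal marker passed in these comparisons. Proliferation markers, of which 4 of 6 were measured, had mean log2 levels of 7.54 to 7.85 in CDd14, 9.07 to 10.70 in CDd7, 7.85 to 8.57 in NPd14 and 8.01 to 9.03 in NPd7. T and NK cell markers, with 8 of 12 measured, were at 7.15 to 7.86 in CDd14, 5.73 to 7.18 in CDd7, 7.08 to 7.93 in NPd14 and 7.20 to 8.30 in NPd7. These means include CD8B, which passed the filter only through the NPd7 pools, where it is high. At day 7, MYLK (1 of 8 smooth muscle markers measured) fell by 3.23 in CD and GYPC (1 of 4 red cell markers) by 0.98. JCHAIN (1 of 6 B and plasma cell markers) was 3.49 lower, not past the threshold. The 4 measured macrophage markers had a median of -0.69, none past the threshold. CLDN5 (1 of 9 endothelial markers) was 2.37 higher in CD. It passed the filter only through the CDd7 pools, where it is high. The part of these cell types in the FGF2 and FGFBP1 levels was not tested.

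**Figure D2:**
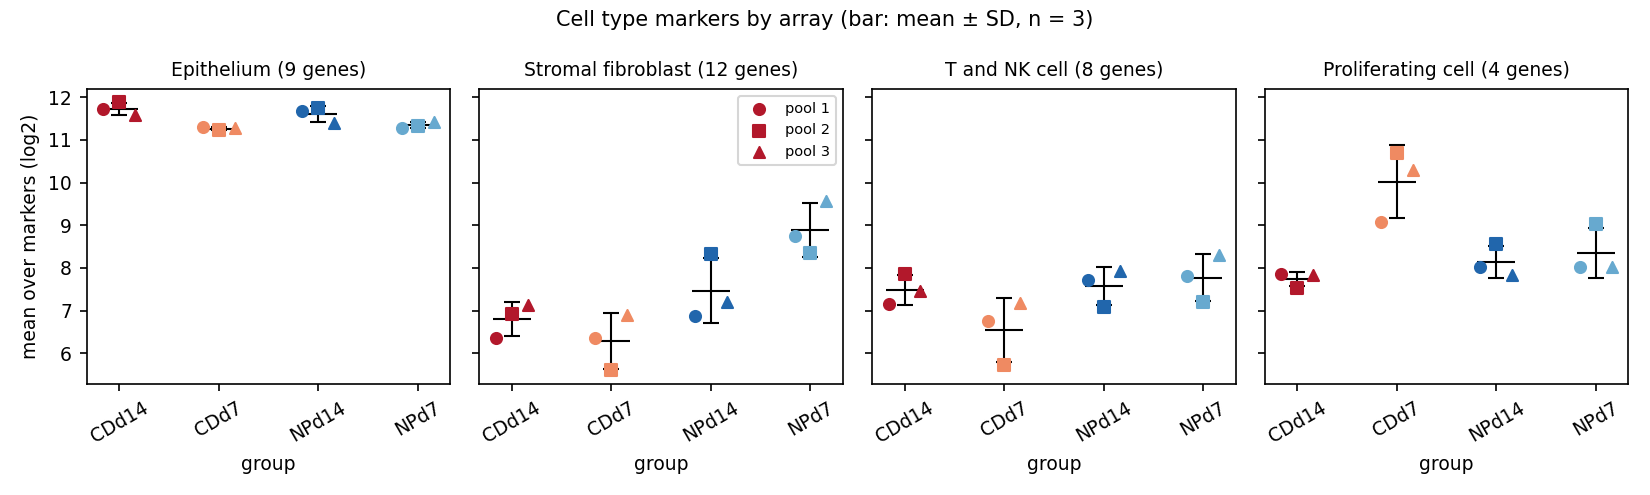
Mean log2 level on each array over the measured markers of epithelium, stromal fibroblasts, T and NK cells and proliferating cells. Groups are in the order CDd14, CDd7, NPd14, NPd7, with 1 point per pool and bars for the mean with SD (n = 3). The stromal panel includes COL6A1 and the T and NK cell panel CD8B, which passed the filter only through the NPd7 pools. Stromal fibroblast markers are highest in NPd7, epithelial markers span 11.23 to 11.88, and proliferation markers are highest in CDd7.

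FGFBP1, the carrier that frees FGF2 from the matrix, had the largest difference between days of the set in CD, while in NP that of MET was larger. Its log2 levels were 8.74, 9.33 and 8.63 in CDd14, against 5.18, 5.0 and 5.78 in CDd7. In NPd14 they were 8.94, 8.15 and 8.72, against 7.55, 7.23 and 7.67 in NPd7. The 3 CDd7 pools lay below all other arrays, and the NPd7 pools lay between them and the day 14 pools of both outcomes. Means were 8.90 ± 0.38 in CDd14, 5.32 ± 0.41 in CDd7, 8.60 ± 0.41 in NPd14 and 7.48 ± 0.23 in NPd7 (SD, n = 3 each). Ordered by mean (CDd14, NPd14, NPd7, CDd7), only the neighbours CDd14 and NPd14 overlapped.

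FGFBP1 rose by 3.58 between days in CD (SE 0.28, 95% interval 2.96 to 4.20, adjusted p = 0.000894). In NP it was 1.12 higher at day 14 (95% interval 0.51 to 1.74, unadjusted p = 0.00225, adjusted p = 0.123). At day 7 it fell by 2.16 in CD against NP (95% interval -2.78 to -1.54, adjusted p = 0.0124). At day 14 the outcomes differed by 0.30 (95% interval -0.32 to 0.91, adjusted p = 0.88). The larger day difference in CD thus came with a lower level in the CDd7 pools, which enter both comparisons. The difference between the day effects was 2.46 (SE 0.39, 95% interval 1.59 to 3.33, unadjusted p = 8.65e-05) and did not pass after adjustment (adjusted p = 0.192).

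By the p-value of that difference FGFBP1 ranked 1 and FGF2 ranked 3 among the 6781 genes, as a description, since no gene passed. The FGFBP1 call at day 7 was lost without CDd7 pool 2 (adjusted p = 0.0541), NPd7 pool 1 (0.0745) or NPd7 pool 3 (0.0773), and when only the 6 day 7 arrays were fitted (0.0673), and its call between days in CD held without any single array. Without NPd7 pool 2 both differences of the day effects passed, with 3.10 and an adjusted p of 0.0322 for FGF2 and 2.59 and 0.0496 for FGFBP1. In the other 18 of 19 alternatives neither passed, with an adjusted p of up to 0.5 for each. Within NPd7, pool 2 had the lowest value of both genes.

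**Figure D3:**
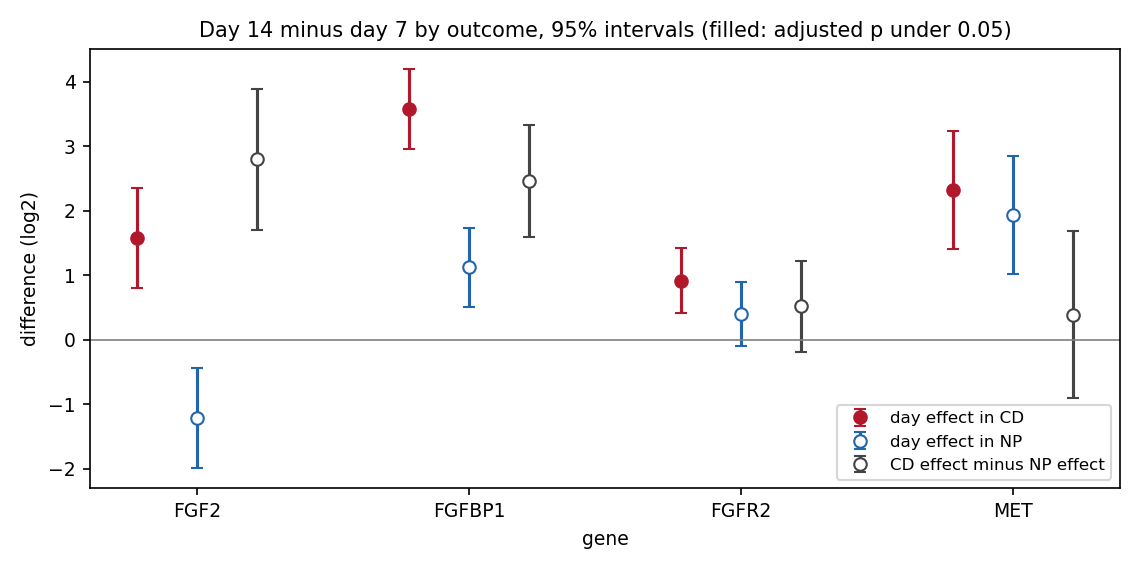
Difference between day 14 and day 7 on the log2 scale for the 4 measured genes, in CD and in NP, with 95% intervals from limma, and the difference between the 2 effects. FGF2 lies above 0 in CD (1.58) and below 0 in NP (-1.21), FGFBP1 is further from 0 in CD (3.58) than in NP (1.12), and the intervals of MET and FGFR2 overlap between the outcomes.

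Among the receptors, FGFR2 was the only FGF receptor measured. Its log2 levels were 10.95, 11.68 and 11.73 in CDd14, against 10.50, 10.35 and 10.76 in CDd7. In NPd14 they were 10.94, 10.99 and 11.30, against 10.85, 10.39 and 10.81 in NPd7. Day 14 pools lay above day 7 pools within each outcome, while at each day the outcomes overlapped. Means were 11.45 ± 0.44 in CDd14, 10.54 ± 0.21 in CDd7, 11.08 ± 0.20 in NPd14 and 10.68 ± 0.25 in NPd7 (SD, n = 3 each). All FGFR2 levels and calls here rest on 1 probe set. The gene's other 4 read 1.61 to 3.40, under the filter, so they do not repeat its level. At values this low they neither repeat nor contradict its differences between groups.

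FGFR2 rose by 0.91 between days in CD (SE 0.23, 95% interval 0.41 to 1.42, adjusted p = 0.0187). The NP difference was 0.40 (95% interval -0.11 to 0.90, adjusted p = 0.412), and the difference between the day effects was 0.52 (95% interval -0.19 to 1.23, adjusted p = 0.458). Between outcomes FGFR2 differed by -0.15 at day 7 (95% interval -0.65 to 0.36) and by 0.37 at day 14 (95% interval -0.13 to 0.87), neither past the threshold. The CD call was lost without CDd14 pool 2 (adjusted p = 0.0609) or pool 3 (0.0688), without CDd7 pool 1 (0.05) or pool 2 (0.0759), and when only the 6 CD arrays were fitted (0.0502).

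MET, the receptor of HGF, had log2 levels of 9.17, 8.01 and 8.31 in CDd14, against 6.01, 5.72 and 6.78 in CDd7. In NPd14 it had 8.15, 8.74 and 7.29, against 6.38, 6.07 and 5.92 in NPd7. All 6 day 14 pools lay above all 6 day 7 pools, and the outcomes overlapped at both days. Means were 8.49 ± 0.60 in CDd14, 6.17 ± 0.55 in CDd7, 8.06 ± 0.73 in NPd14 and 6.13 ± 0.23 in NPd7 (SD, n = 3 each).

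MET rose by 2.32 between days in CD (SE 0.41, 95% interval 1.41 to 3.24, adjusted p = 0.00577). In NP it was 1.94 higher at day 14 (95% interval 1.02 to 2.85, unadjusted p = 0.000829, adjusted p = 0.0825), and it passed without NPd14 pool 3 (2.32, adjusted p = 0.0313), the pool with the lowest MET and SERPINA14 of that group. The day effects differed by 0.39 (95% interval -0.91 to 1.69, adjusted p = 0.763). Between outcomes MET differed by 0.04 at day 7 (95% interval -0.88 to 0.96) and by 0.43 at day 14 (95% interval -0.49 to 1.35). These intervals leave room for differences of nearly 1 log2 unit at day 7 in either direction.

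Epithelial markers, of which 9 of 12 were measured, had mean log2 levels of 11.59 to 11.88 in CDd14, 11.23 to 11.30 in CDd7, 11.41 to 11.75 in NPd14 and 11.27 to 11.43 in NPd7. All 9 were higher at day 14 in CD, by a median of 0.34 against 0.00 over all genes. Of the 9, CDH1 and KRT7 rose, against 9.87% of all genes. In NP 7 were higher and 2 lower at day 14, with a median of 0.08 against -0.06 over all genes, and none passed. KRT8 was at or under the filter, and FOXA2 had no single-symbol probe set. Of 6 neutrophil markers, S100A8, S100A9 and S100A12 were measured, with mean log2 levels of 6.37 to 7.67 in CDd14, 3.81 to 5.80 in CDd7, 7.59 to 10.01 in NPd14 and 5.93 to 8.32 in NPd7. Their median difference between days was 2.54 in CD, where S100A12 rose, and 2.24 in NP, where none passed, beside 2.32 and 1.94 for MET. The genes differed in CD, with 0.09 for S100A9, 2.54 for S100A8 and 3.51 for S100A12. S100A9 was near the filter there, with means of 4.21 in CDd14 and 4.12 in CDd7. At day 7 the neutrophil median was -2.62 in CD against NP, none past the threshold, beside 0.04 for MET and -2.16 for FGFBP1. S100A9 differed by -0.48 at that day, S100A8 by -2.62 and S100A12 by -2.66. MMP9 was at or under the filter, and CXCR2 and CSF3R had no single-symbol probe set. The part of epithelium and neutrophils in the levels of MET, FGFR2 and FGFBP1 was not tested.

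Counted over the 4 measured genes, 4 rose between days in CD against 9.87% of all genes, and 4 had non-overlapping days against 22.1% of all genes that were higher in this way. In NP, limma called 0 of 4, with 3 at an unadjusted p under 0.05 (16.5% of all genes). There 3 genes were higher at day 14 with no overlap (7.33% of all genes) and FGF2 was lower with no overlap (15.3% of all genes). At day 7, 2 of 4 fell in CD against 2.02% of all genes, and the same 2 had no overlap (18.6% of all genes were lower in this way). At day 14 limma called 0 of 4 with 1 at an unadjusted p under 0.05 (6.34% of all genes), and FGF2 alone was higher in CD with no overlap (4.85% of all genes). Setting the day effects against each other gave 0 calls and 2 genes at an unadjusted p under 0.05 (14.5% of all genes). With 4 genes chosen in view of these results, the counts are a description of the set.

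The remaining 13 probe sets of the set, for FGF2, FGFR1, FGFR2, FGFR3 and HGF, lay between 1.61 and 3.40 on every array, under the filter. FGFR1 read 2.35 to 3.40 on 2 probe sets, FGFR3 read 1.61 to 2.15 on 5, and HGF, the ligand of MET, read 2.17 to 2.32 on 1. The other 4 FGFR2 probe sets read 1.61 to 3.40. In 11 of the 13 the range over the 12 arrays was at most 0.319. The exceptions were 1 probe set of FGFR2, with 3.40 in CDd14 pool 2 and 1.61 to 1.68 elsewhere, and 1 of FGFR1, with 3.40 in NPd14 pool 2. Each rests on a single high array. Values this low on GCRMA's scale do not show whether the genes were expressed, only that these probe sets gave no level above the filter. At the filter, the lowest value inside was 5.0 (FGFBP1 in CDd7 pool 2) and the highest outside was 3.40.

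**Figure D4:**
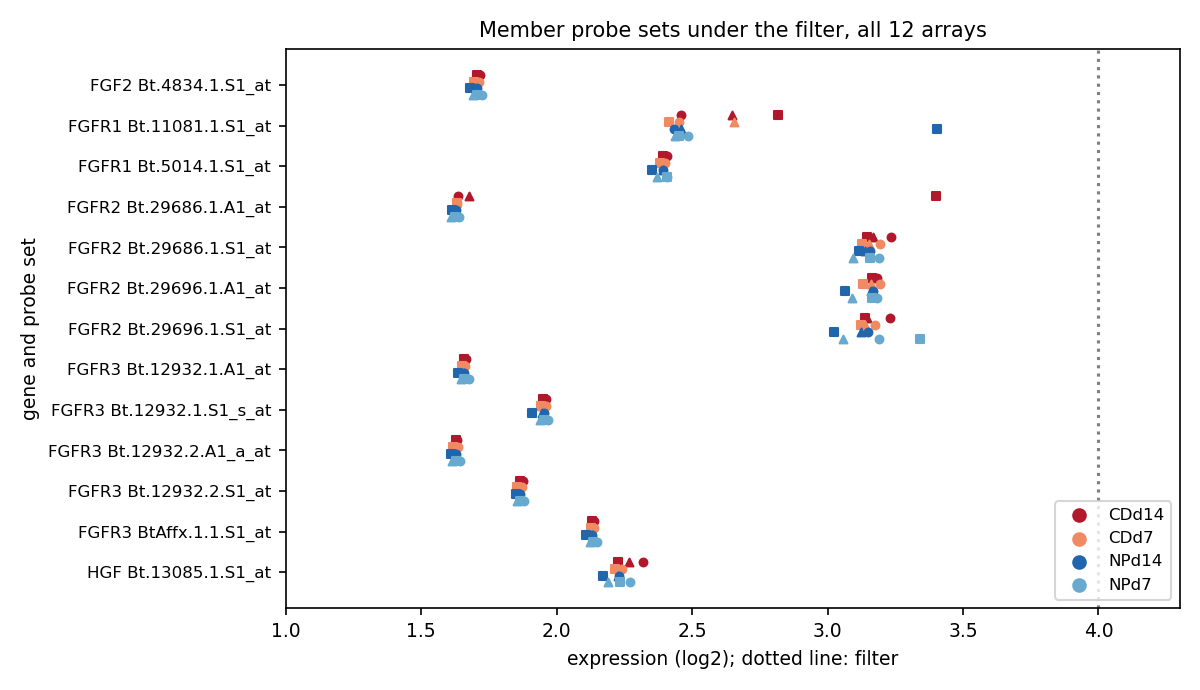
Log2 level of the 13 probe sets under the filter, 1 line of points per probe set with 1 point per array, coloured by group, and the filter at 4 as a dotted line. All lie under the line, and only 1 FGFR1 and 1 FGFR2 probe set spread by more than 0.5.

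Beyond the set, 111 genes in 6 lists cover the rest of the pathway, chosen with earlier results known. Of these, 60 had a probe set and 40 were measured. Between days in CD, 7 of the 40 rose (17.5%) and 8 fell (20%), against 9.87% and 14.2% of all genes, and their median was -0.03. One of the 8, HGFAC, passed the filter only through the group where it is high, and without it 7 of 39 rose, 7 fell and the median was 0.05. In NP limma called 0 of 40, with 13 at an unadjusted p under 0.05 (32.5%, against 16.5% of all genes). At day 7 it called 1 (2.5%), the transcription factor MYC, which fell, against 2.02% of all genes that fell. At day 14, and when the day effects were set against each other, it called 0. An unadjusted p under 0.05 was seen in 19 of 40 between days in CD (47.5%, against 39.3% of all genes) and in 14 of 40 at day 7 (35%, against 30.4%). It was seen in 3 of 40 at day 14 (7.5%, against 6.34% of all genes) and in 13 of 40 between the day effects (32.5%, against 14.5%).

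Of 20 other FGF ligands 1 was measured, FGF1, with a difference of -0.23 between days in CD (adjusted p = 0.432). Among receptors, carriers and co-receptors 5 of 19 were measured, of which 1 rose and 1 fell in CD, against 9.87% and 14.2% of all genes. SDC2, a syndecan that carries heparan sulfate, was at 11.45, 11.05 and 11.11 in CDd14 against 9.36, 9.31 and 9.19 in CDd7. Its NP levels were 10.07, 10.70 and 9.80 in NPd14 against 9.83, 9.88 and 9.56 in NPd7, so the days overlapped there. SDC2 rose by 1.92 in CD (adjusted p = 0.00176). GPC1, a glypican that also binds FGF2, was at 7.50, 7.47 and 7.68 in CDd14 against 10.37, 10.39 and 9.77 in CDd7. In NPd14 it was at 7.77, 8.89 and 7.46 against 8.21, 9.74 and 8.42 in NPd7, where pool 2 lay near the CDd7 pools. GPC1 fell by 2.63 in CD (adjusted p = 0.00452).

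Of 14 genes that build or edit heparan sulfate, 5 were measured, of which 1 rose and 1 fell in CD, against 9.87% and 14.2% of all genes. HS6ST1, a sulfotransferase that adds sulfate groups, rose by 1.13 (adjusted p = 0.00176), and SULF2, which removes them outside the cell, fell by 1.55 (adjusted p = 0.0154). The SULF2 call was lost without CDd14 pool 3 (0.0521) or CDd7 pool 2 (0.0647). Of 10 genes of HGF activation, 7 were measured. PLAT, the tissue plasminogen activator, rose by 2.47 (adjusted p = 0.00573). HGFAC, the protease that activates HGF, fell by 3.98 (adjusted p = 0.00765), and its levels were 1.66, 1.65 and 1.65 in CDd14 against 5.94, 6.16 and 4.82 in CDd7. The CDd14 values were nearly identical and far under the filter, so this difference depends on GCRMA's floor. HGFAC had to differ, since it passed the filter through the CDd7 pools, and its call is a description. In NP, HGFAC was above the filter only in NPd7 pool 2, at 5.21.

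Of 28 genes of the signal relay, 16 were measured, of which 1 rose and 5 fell in CD, against 9.87% and 14.2% of all genes. The adaptor SHC1 rose by 0.54 (adjusted p = 0.0204). The kinase ARAF fell by 1.52 (adjusted p = 0.00268), the phospholipase PLCG1 by 1.09 (0.00278), the kinase MAP2K2 by 0.65 (0.0112) and PIK3CA, a catalytic subunit of PI3 kinase, by 0.50 (0.0219). HRAS, a RAS GTPase, was the fifth. The SHC1 call was lost without CDd14 pool 2 (0.0647) or pool 3 (0.0599) or CDd7 pool 2 (0.0823). The other kept probe sets of SHC1, ARAF and PIK3CA gave 0.08, -0.19 and -0.05, none past the threshold, so these calls rest on 1 probe set each. AKT1, a kinase counted as not called by its brightest probe set (-0.21, adjusted p = 0.203), had another that passed in CD (-0.75, adjusted p = 0.0204).

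Of 20 feedback inhibitors and targets, 6 were measured and 3 rose in CD, against 9.87% of all genes, with a median of 1.15. SPRY2, an inhibitor that FGF signalling induces, was at 9.45, 9.35 and 9.32 in CDd14 against 8.04, 7.92 and 8.23 in CDd7. It was at 9.24, 9.14 and 9.32 in NPd14 against 8.81, 8.05 and 8.87 in NPd7. The days did not overlap in either outcome, and NPd7 pool 2 lay within the CDd7 range. SPRY2 rose by 1.31 in CD (adjusted p = 0.0035) and was 0.66 higher at day 14 in NP (adjusted p = 0.168). FOS, an immediate early transcription factor, rose by 1.59 in CD (adjusted p = 0.00289) and was 1.22 higher at day 14 in NP (adjusted p = 0.0658). MYC rose by 1.39 in CD (adjusted p = 0.00949), fell by 1.34 in CD against NP at day 7 (adjusted p = 0.0401) and differed by 0.05 between days in NP. The day 7 call of MYC was lost without any CDd14 pool (0.0574, 0.0581 and 0.0662), CDd7 pool 1 (0.0649) or 2 (0.16), NPd14 pool 1 (0.0586), or NPd7 pool 1 (0.145) or 3 (0.17).

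**Figure D5:**
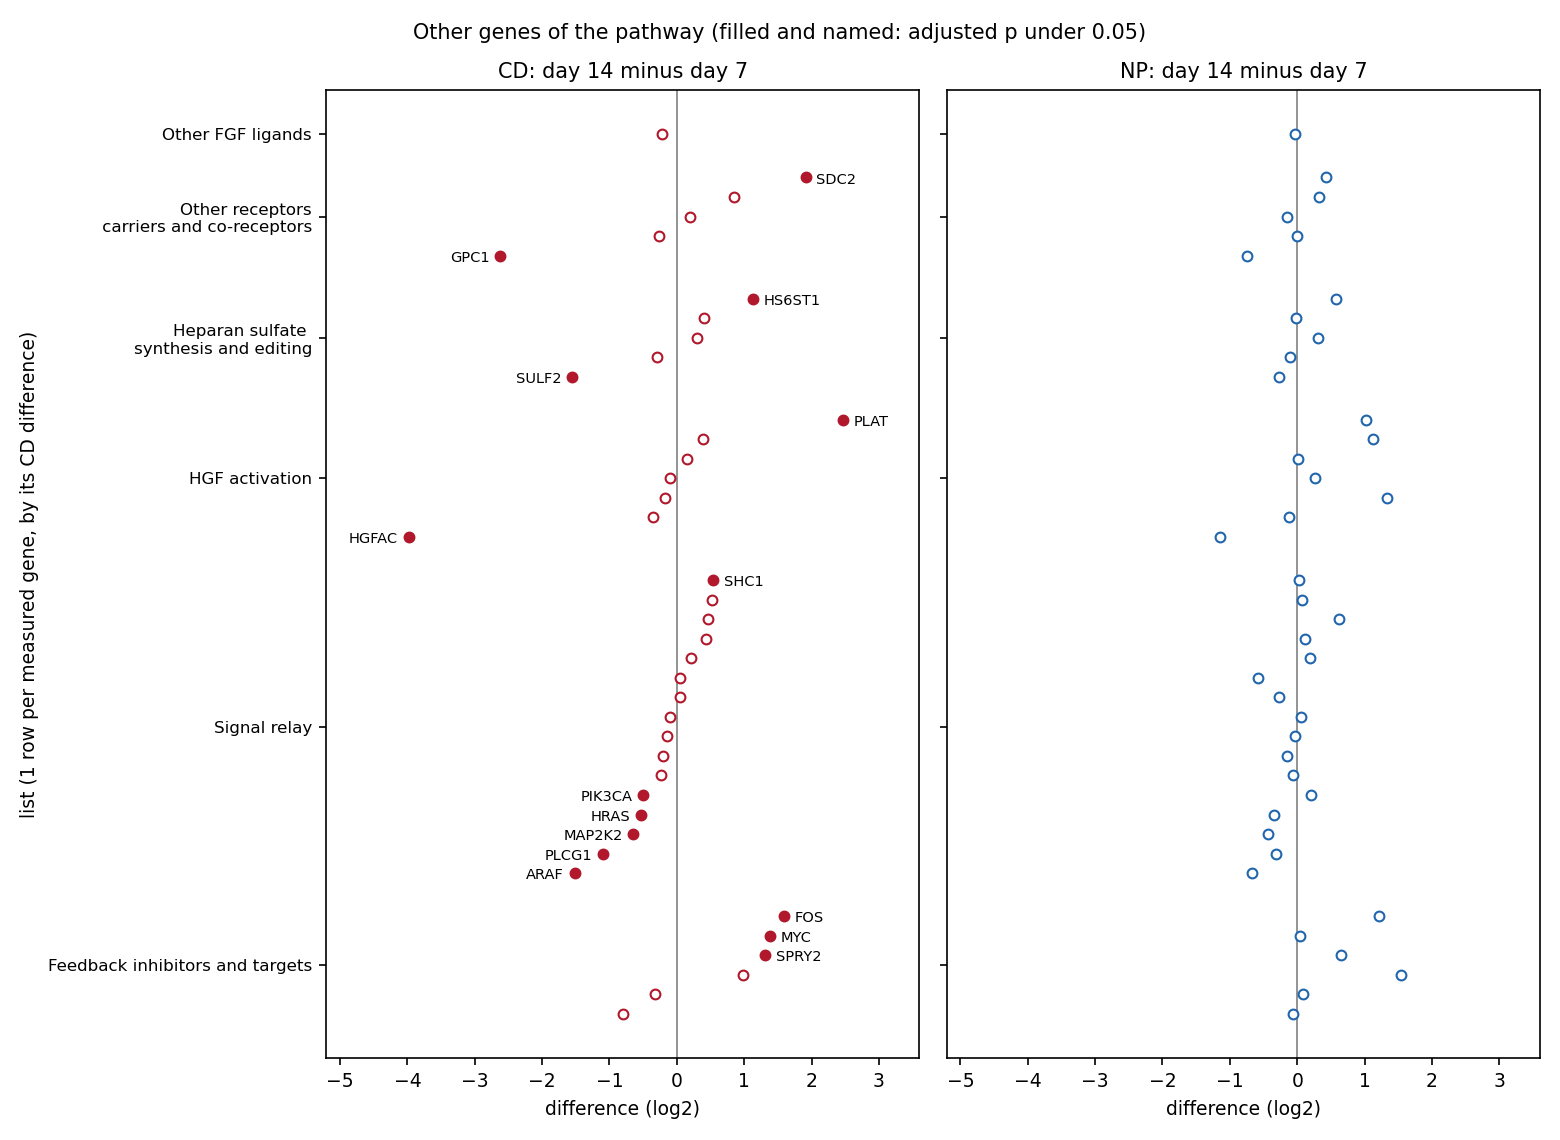
Difference between day 14 and day 7 on the log2 scale for the 40 measured genes of the 6 pathway lists, 1 row per gene, with CD on the left and NP on the right. Filled and named points passed an adjusted p of 0.05, which 15 did in CD (7 higher, 8 lower) and none did in NP, where 13 had an unadjusted p under 0.05.

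The genes whose levels followed each member most closely over the 12 arrays were named by Pearson's r, as a description, since the arrays share their groups. For FGF2 these were CCNDBP1 (r = 0.930), PCBD1 (0.914) and PLEKHB1 (0.908). For FGFBP1 they were IKBKB (0.970), CAPN2 (0.968) and LEMD2 (0.964). For FGFR2 they were BCAR3 (0.918), JAK1 (0.917) and SEPTIN8 (0.909), and for MET they were PPT1 (0.974), SERINC2 (0.965) and HTATSF1 (0.959). No gene appeared in more than 1 of these lists. A high r does not mean changes of like size. Over the 12 arrays CCNDBP1, PCBD1 and PLEKHB1 ranged over 0.34, 0.55 and 0.93 log2 units, against 2.60 for FGF2.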

How the data were processed

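The deposited values are on the log2 scale. The submitters' processing notes name GCRMA, a method that removes background, normalizes the arrays against each other and gives 1 value per probe set, and limma, both without a version. Dim probe sets end near a floor under GCRMA, at a level that differs between probe sets. In CDd14, 1 title gives a pool number in its name that differs from its replicate number, and the replicate number was used.

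From these values, 112 control probe sets were left out and a probe set was kept when above 4 on at least 3 of 12 arrays (13449 of 24016, 56.0%). limma 3.58.1 in R 4.3.3 fitted 4 group means (8 residual degrees of freedom, 2.13 prior) and 5 contrasts, with empirical Bayes moderation and Benjamini-Hochberg adjustment over the kept probe sets. Calls were made at an adjusted p under 0.05 (two-sided). A gene stands for its kept probe set with the highest mean (6781 genes). Fold changes from near 4 or below depend on the floor. Named pathway genes are, per list and contrast, up to 4 called genes with the smallest p, or else the one with the smallest p between days in CD. Likeness names the 3 genes with the highest r per member.

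The members and lists were chosen with earlier results of these data known. Symbols were checked by gene identifier through a RefSeq gene table, which matched 13283 of 13318 single-symbol probe sets and changed 0. The script was tested on simulated data. Genome coordinates and sequences were not used. Precision is limited by the number of arrays.

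Same-numbered NP pools of both days had correlated deviations (r = 0.16, 0.62 and 0.51). Such correlations do not show whether the pools share heifers, and the main fit uses no pairing. In CD the correlations were 0.24, -0.07 and 0.23, between outcomes -0.03, 0.36 and 0.27 at day 7 and 0.10, -0.23 and 0.16 at day 14. A fit with the pool number as a block is given with the alternatives.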

Additional observations from a re-analysis of the deposited data

Results flagged for a closer look

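The FGF2 difference of day effects was 2.80 on the log2 scale, since every CDd14 pool was above every CDd7 pool and every NPd14 pool was below every NPd7 pool. limma's test of this difference had an adjusted p of 0.192, and leaving out NPd7 pool 2 brought it to 0.0322. Of 19 alternatives this was the only 1 in which it passed. In the other 18 it did not pass, with an adjusted p of up to 0.5. Single deviating arrays were not tested for in groups of 3 pools.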

How the results depend on the processing

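The 4 calls between days in CD numbered 3 to 4 when arrays were left out in turn, and FGF2, FGFBP1 and MET stayed called between days in CD under all 20 alternatives. In NP the count was 0 to 1, for the difference of the day effects 0 to 2, and at day 7, where the full data gave 2, it was 0 to 2. The day 7 count was 1 with no filter and 0 with only the 6 arrays of that contrast. MET at day 7 ranged over -0.26 to 0.27 as arrays were left out, with -0.26 without CDd7 pool 3 and -0.06 without NPd7 pool 3. With the pool number as a replicate block the member counts stayed at 4, 0, 2, 0 and 0 over the 5 contrasts, while the probe sets called moved to 21 in NP (44 without the block), 1455 at day 7 (503) and 0 at day 14 (3). A replicate block within each outcome, chosen after seeing the data, gave adjusted p of 0.093 for FGF2 and 0.0891 for FGFBP1 in the difference of the day effects. The same fit called 0 probe sets in NP and 28 for that difference. Probe sets called over the whole table between days in CD numbered 3231, and 1320 to 3732 as arrays were left out. At day 7 they were 161 with no filter, 3 with only that contrast's arrays and 0 to 1676 as arrays were left out. In NP they were 9 with a stricter filter, 17 with a trended and robust prior, 0 with only the NP arrays and 1 to 172 as arrays were left out. At day 14 they were 6 with no filter, 0 with a stricter filter, quantile normalization, the trended prior or only that contrast's arrays, and 0 to 12 as arrays were left out. For the difference of the day effects they were 1 with no filter and 0 to 53 as arrays were left out. Averaging each gene's probe sets gave 1674 genes in CD, 2 in NP, 307 at day 7 and 0 at day 14. HGFAC did not pass the stricter filter and has no value there. Among other pathway genes the day 7 count of 1 was 0 with no filter, 5 with the block 0 with only that contrast's arrays and 0 to 7 as arrays were left out, and SHC1 lost its call when a gene's probe sets were averaged (0.31, adjusted p = 0.0734). The cause of these changes was not tested beyond the fewer arrays or genes that a setting leaves.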

Other observations

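The FGF2 pattern, high in CDd14 and NPd7 and low in CDd7 and NPd14, was looked for in all genes after its values were seen. It held with no overlap in any of the 4 comparisons in 11 of 6781 genes (0.162%), namely FGF2, RACK1, PLEKHB1, FAIM, PCBD1, CCNDBP1, MLYCD, ING1, HEATR6, TMEM205 and MRPL46. Outside FGF2, with a difference of day effects of 2.80, the differences were 0.20 to 0.90, and none of the 11 passed the threshold. The mirror pattern held in 2 genes (0.0295%), SPRTN (-0.43) and SEC61A2 (-1.07).

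The difference between 3' and 5' probe sets of control transcripts, a reading of RNA integrity and labelling, was 1.97 ± 0.11 in CDd14, 1.65 ± 0.20 in CDd7, 2.32 ± 0.17 in NPd14 and 1.94 ± 0.19 in NPd7 (SD, n = 3 each). Its part in the growth factor levels was not tested.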
